A study of Mus musculus with 207 samples.

Results

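The transcripts described here are those of 7 genes that mark B cells and the plasma cells they give rise to: Cd79a, Cd79b, Ms4a1, Pax5, Pou2af1, Mzb1 and Tnfrsf17. They were chosen by gene name, and every probe with one of these names, current or older, was taken from an Illumina Mouse WG-6 v2 BeadChip. Of the 7 genes, 6 had a named probe, with 7 probes in all among 45281 on the array. Cd79b had 2 probes and the other 5 genes had 1 each. Cd79a had no probe under its symbol, an older symbol or its gene number and was not analysed here. Cecal RNA was measured in 207 mice of the Collaborative Cross (CC) breeding population, which descends from common and wild-derived inbred founder strains, with 1 array for each mouse. The mice were adults of partly inbred lines, and no treatment was named. Of these, 205 were labelled female or male, in nearly equal numbers, and 2 entered no comparison. The first number of each label was read as the breeding line, which gave 112 lines with a labelled sex, of which 92 held a mouse of each sex. By the study's methods each line was caged apart from the others, and mice were kept singly or with siblings of their own sex. Which mice shared a cage was not known here, so effects of cage and line cannot be separated. By the same methods, RNA came from a pellet of cells that a chelating solution released from the rinsed cecum.

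B cells bind antigen with a membrane antibody that signals through a pair of partner chains, Cd79a and Cd79b. Pax5 holds cells in the B cell state, and Ms4a1 encodes CD20, a surface protein of mature B cells. Pou2af1, also called OBF-1, is the B cell coactivator of Oct factors and is used in B cells and plasma cells alike. When a B cell becomes a plasma cell, Pax5 and Ms4a1 are turned down and the secretory machinery grows. Mzb1 is a chaperone of the endoplasmic reticulum that helps antibody assembly, and Tnfrsf17 encodes BCMA, the receptor through which plasma cells receive survival signals. In the intestine, B cells gather in lymphoid follicles, and the plasma cells of the lamina propria make the IgA that is carried into the lumen. Cd79b, Ms4a1 and Pax5 are called the B cell members below, and Mzb1 and Tnfrsf17 the plasma cell members, with Pou2af1 kept apart.

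Promoters of 4 members were in the RefSeq table (GRCm38.p6), those of Cd79a, Pax5, Pou2af1 and Tnfrsf17. The 250 bases before the start site were searched on both strands for the octamer ATGCAAAT, the EBF motif (TCCC, any 2 bases, GGGA), the ETS-IRF motif (GGAA, any 2 bases, GAAA) and the unfolded protein element TGACGTGG. The only match among the 4 was 1 unfolded protein element in Pou2af1, at positions -61 to -54 from the start site, and this motif was in 0.564% of 32817 promoters. The octamer was in 1.6%, the EBF motif in 0.78% and the ETS-IRF motif in 2.3% of them. The promoter of Pou2af1 (chr9:51213440-51213689, plus strand) is shown with the match in capitals, beside that of Pax5 (chr4:44710695-44710944, minus strand), which had none. The pair is shown because the probes of these members differed in the line 810 female described at the end. There Pou2af1 was far above the other mice, and the Pax5 probe, which lies below background, was within their range. That probe does not show whether the Pax5 transcript was raised, so the pair is no contrast of promoters. A match is a description of letters and no binding was measured.
Pou2af1: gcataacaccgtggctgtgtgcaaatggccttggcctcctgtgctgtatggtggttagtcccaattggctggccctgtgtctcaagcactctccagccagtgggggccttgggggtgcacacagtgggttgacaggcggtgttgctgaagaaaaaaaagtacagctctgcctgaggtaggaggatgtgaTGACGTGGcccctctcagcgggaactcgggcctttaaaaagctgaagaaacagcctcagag
Pax5: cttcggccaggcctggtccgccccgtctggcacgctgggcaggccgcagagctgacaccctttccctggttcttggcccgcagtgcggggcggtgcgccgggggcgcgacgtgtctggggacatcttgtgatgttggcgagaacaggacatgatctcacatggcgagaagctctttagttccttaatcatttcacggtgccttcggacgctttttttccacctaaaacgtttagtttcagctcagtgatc

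Values are log2 intensities, with intensities under 16 set to 16, so that 4.0 is the lowest value possible. Background was taken as 6.34, the 95th percentile of the mean levels of 1531 chemosensory receptor probes, and 20276 probes (44.8%) had a mean above it. Intensities below 0 occurred on 8 arrays (6 from females, 2 from males), which stood apart most for the dimmer members, as given below. The median intensity of an array ran from 41.5 to 103.7. In 4 mice the sex-linked transcripts went against the label, and they were kept as labelled. Markers of other cells were present in the same RNA, with 8 of 8 epithelial, 6 of 6 goblet cell, 6 of 6 smooth muscle, 6 of 6 macrophage and 5 of 9 T cell markers above background.

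Cd79b, Pou2af1 and Mzb1 were measured well above background in nearly every mouse, while Ms4a1, Tnfrsf17 and above all Pax5 lay at or under it. The levels of different probes are not comparable with each other, so each member is described against background and over mice. Cd79b (brighter probe) had a lowest value of 5.58, a median of 7.67 and a highest of 10.96 in females. In males these values were 4.0, 7.66 and 8.85. The sexes overlapped over nearly the whole range, and 197 of 205 mice were above the background of their own array. The dimmer probe of Cd79b ran from 4.0 over a median of 6.66 to 10.09 in females and from 4.0 over 6.59 to 7.56 in males. It passed the background of its array in 141 mice. The 2 probes followed each other over the 112 line means, with r = 0.577 (rho = 0.701), and r = 0.782 (rho = 0.763) without the 8 arrays (permutation p = 1e-05 for each, the smallest that 100000 permutations give).

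Ms4a1 was narrow and close to background. Its values ran from 6.01 over a median of 6.34 to 7.56 in females and from 5.84 over 6.34 to 7.33 in males, and 79 of 205 mice passed the background of their array. Pax5 did not reach background in most mice, with 4.0, 6.13 and 6.48 in females and 4.0, 6.14 and 6.66 in males as lowest, median and highest. Only 4 mice passed the background of their array, so the spread of Pax5 is mostly that of a probe below background. Both sexes covered the same range for both genes.

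Pou2af1 ran from 6.35 over a median of 7.62 to 12.55 in females and from 6.22 over 7.50 to 9.02 in males, with 196 of 205 mice above the background of their array. Mzb1, the chaperone of antibody assembly, had 6.92, 8.56 and 14.38 in females and 6.64, 8.57 and 10.32 in males as lowest, median and highest, and 204 of 205 mice passed. It was the member detected in the most mice. Tnfrsf17, the plasma cell survival receptor, ran from 4.0 over 6.41 to 8.54 in females and from 4.94 over 6.37 to 7.31 in males, and 49.8% of mice passed. The highest values of Cd79b, Pou2af1, Mzb1 and Tnfrsf17 all came from 1 female, that of line 810, while the other mice of the sexes overlapped.

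**Figure D1:**
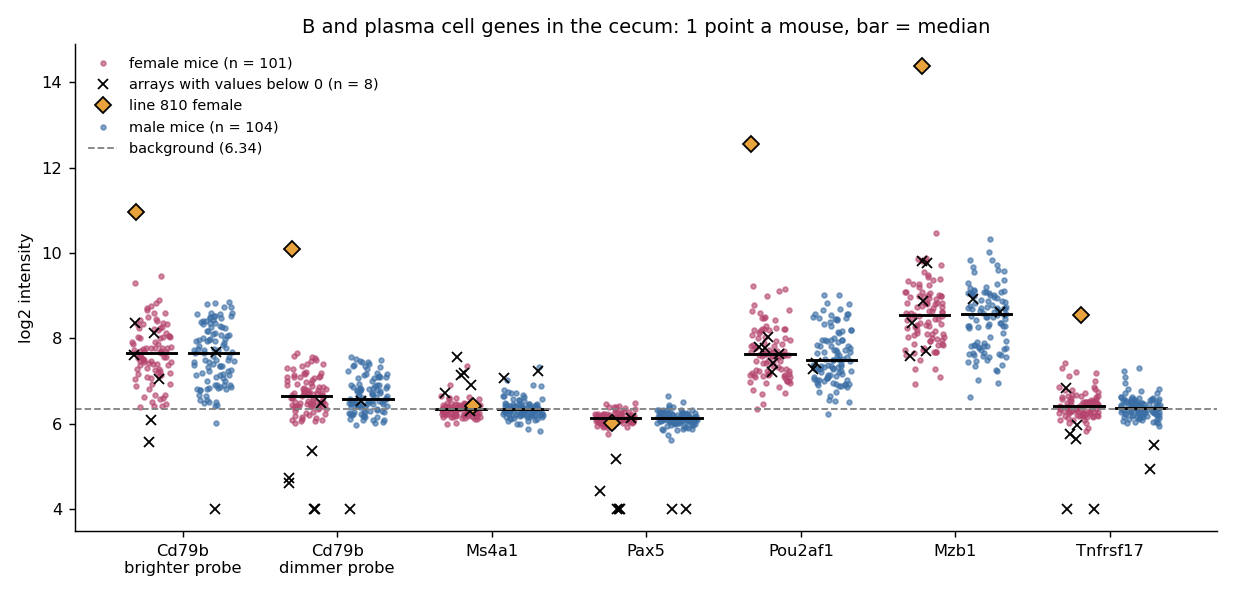
Log2 intensity of each probe (vertical axis) in 205 female and male mice, with 1 point for each mouse, bars at the medians and the background of 6.34 as a dashed line. Crosses are the 8 arrays with values below 0 and diamonds the line 810 female, which is the highest mouse for Cd79b, Pou2af1, Mzb1 and Tnfrsf17 and lies among the others for Ms4a1 and Pax5.

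The 8 arrays with values below 0 moved the dim members most. Pax5 had a median of 4.0 on them against 6.14 on the other 197 arrays, and 5 of the 8 were at the floor. Tnfrsf17 had a median of 5.58 on the 8 arrays and 6.40 on the others, and the dimmer Cd79b probe 4.67 and 6.66. Ms4a1 was displaced the other way, with 7.12 on the 8 arrays and 6.34 elsewhere. For Mzb1 the medians were 8.75 and 8.56, and for Pou2af1 7.52 and 7.59, within the range of the other arrays. The brighter Cd79b probe had medians of 7.33 and 7.68, with 1 of the 8 arrays at the floor. It passed the background of the array on 4 of the 8, as did Pou2af1, while Mzb1 passed on 7. The line, sex and correlation results of Pax5, Tnfrsf17 and Ms4a1 are therefore given with and without these arrays.

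The members differed in how widely they varied. The SD over 205 mice was 0.82 for Mzb1, 0.77 for Cd79b and 0.69 for Pou2af1, at the 93.6th, 91.8th and 88.1st percentile of the SDs of probes above background. Without the 8 arrays and the line 810 female, these 3 genes had SDs of 0.71, 0.67 and 0.61 and stayed at the 92.4th, 90.8th and 87.3rd percentile. Under the same restriction the SD was 0.27 for Tnfrsf17, 0.20 for Ms4a1 and 0.14 for Pax5, at the 32.3rd, 15.0th and 0.927th percentile. In a bulk tissue, fewer cells of a type and less RNA in each cell cannot be told apart, and near background a narrow spread cannot be told apart from the detection limit of the probe.

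The design allows the spread to be divided between breeding lines. The line ICC is the share of the variance of sex-centred values that lies between lines, computed over 185 mice of the 92 lines with both sexes, and tested with an F-test of line adjusted over all 45281 probes by Benjamini-Hochberg. No member passed: 0 of 6 genes were called, against 2697 of 45281 probes on the array (percent called 5.96), and 1 of 6 had an unadjusted p under 0.05, as had 7023 of 45281 probes. The ICC was 0.170 for Cd79b (95% interval -0.03 to 0.36, adjusted p = 0.32), 0.13 for Ms4a1 (-0.07 to 0.32, adjusted p = 0.457) and 0.0911 for Mzb1 (-0.11 to 0.29, adjusted p = 0.58). Pax5, Pou2af1 and Tnfrsf17 had ICCs below 0, at -0.081, -0.103 and -0.123. Without the 8 arrays Pax5 had 0.0631, Tnfrsf17 -0.0616, Ms4a1 0.111 and Cd79b 0.199 (adjusted p = 0.149), none of them called. The sign for Pax5 also turned under other processing, with 0.0581 after quantile normalization, 0.12 after removal of 10 principal components and 0.208 (0.00672 to 0.394, adjusted p = 0.175) after subtraction of the 5th percentile of each array. The median over all probes was 0.0382, and 0.0793 over the probes above background. The intervals leave room for ICCs of up to 0.36 for Cd79b and 0.08 for Tnfrsf17.

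Individual pairs show the same spread. Within a line, female and male differed by a median of 0.50 for Cd79b, 0.54 for Mzb1 and 0.62 for Pou2af1, while the SD of the line means was 0.61, 0.65 and 0.50. Both mice were over the median of all mice in 29 of 92 lines for Cd79b, 27 for Mzb1 and 25 for Pou2af1, and they fell on opposite sides in 36, 39 and 44 lines. Line 780 was high in both mice, with Cd79b at 9.30 in the female and 8.83 in the male and Mzb1 at 10.46 and 9.84. Line 5513 was low in both, with Mzb1 at 7.10 and 7.02. Line 690 was split, with Mzb1 at 8.87 in the female and 10.32 in the male.

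**Figure D2:**
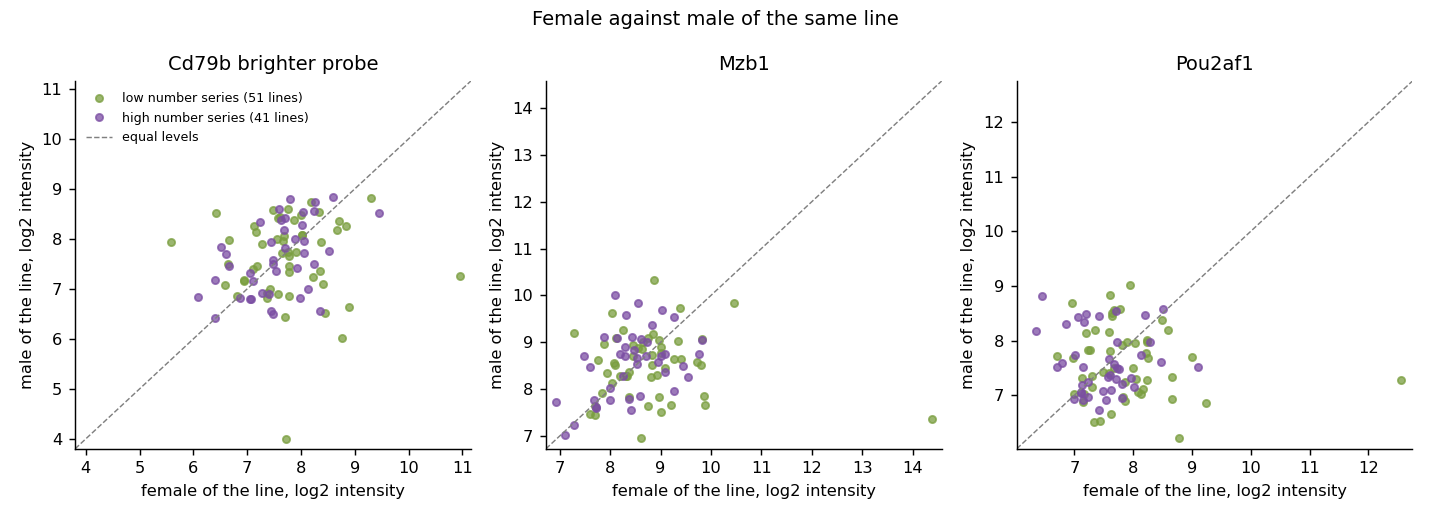
Log2 intensity of Cd79b, Mzb1 and Pou2af1 in the female (horizontal) and the male (vertical) of each of 92 lines, coloured by number series, with the dashed line at equal levels. The line 810 female lies alone at the right of each panel, with a male at 7.25, 7.37 and 7.28 for Cd79b, Mzb1 and Pou2af1.

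The second number of the labels falls into a low series of 114 mice and a high series of 90, whose meaning is not stated, and the line ICC was also computed within each. In the high series (41 lines), Cd79b had an ICC of 0.466 (0.195 to 0.673) and passed the F-test of line (adjusted p = 0.03), 1 of 6 members against a percent called of 2.96. Its dimmer probe had 0.305 (adjusted p = 0.262). Mzb1 had 0.403 (0.119 to 0.627, adjusted p = 0.0874) and Ms4a1 0.272 (adjusted p = 0.336). In this series 3 of 6 members had an unadjusted p under 0.05, against 5994 of 45281 probes. In the low series (51 lines, percent called 3.48), 0 of 6 members were called. None of the 6 had an unadjusted p under 0.05, against 5095 of 45281 probes. The ICCs were 0.00912 for Cd79b (-0.263 to 0.281) and -0.0566 for Mzb1 (-0.323 to 0.219). The difference of the ICC between the series was not tested. The low series holds the line 810 female, with Cd79b at 10.96 against 7.25 in the male of its line. It also holds the line 3011 male, whose array was 1 of the 8 and had Cd79b at 4.0. Others of the 8 arrays are in both series, and no ICC within a series was computed without these mice. The lines at the ends of the Cd79b range in the high series were line 4001, with 9.45 in the female and 8.52 in the male, and line 1401, with 6.41 and 6.42.

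A single mouse bore on the line ICC of Mzb1. Without the line 810 female it was 0.274 (0.08 to 0.45, adjusted p = 0.0585), and Cd79b had 0.211 (adjusted p = 0.19). Without that mouse and the 8 arrays, Cd79b had 0.258 (adjusted p = 0.0614) and Mzb1 0.246 (adjusted p = 0.0751), and again 0 of 6 members were called, with 2 at an unadjusted p under 0.05. Over all 45281 probes, 5198 were called and 11892 had an unadjusted p under 0.05 in this setting. These exclusions were chosen after seeing the data. Pou2af1 kept an ICC below 0 under them, at -0.0955 and -0.0973.

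**Figure D3:**
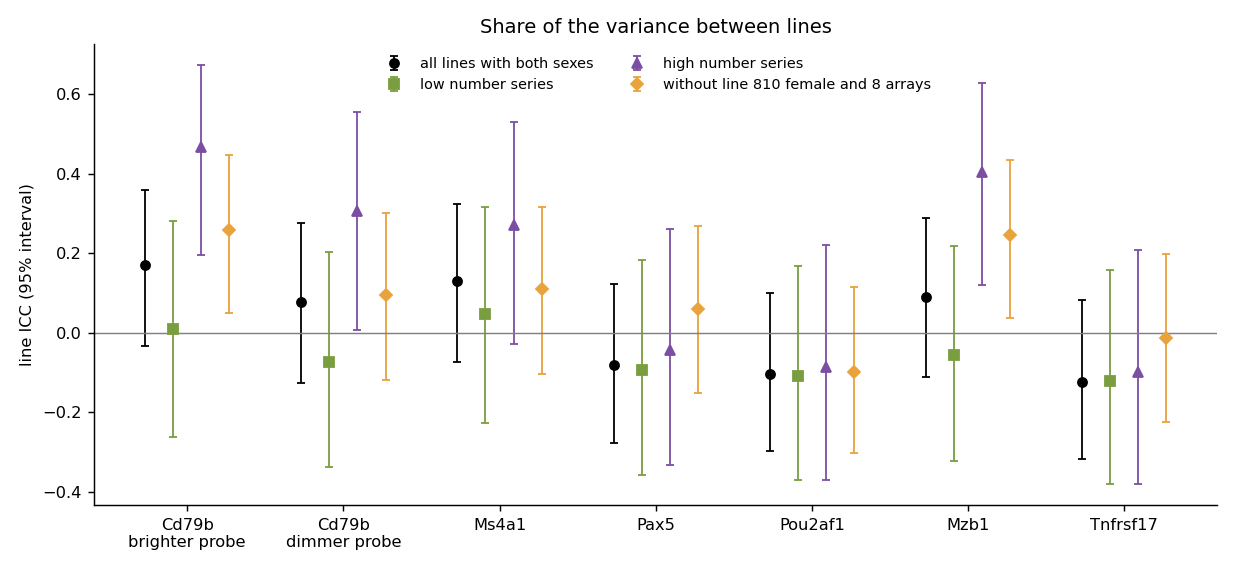
Line ICC of each probe with its 95% interval, over all lines with both sexes, within each number series, and without the line 810 female and the 8 arrays with values below 0. Cd79b and Mzb1 are highest in the high series, at 0.466 and 0.403, and Pou2af1 is below 0 in each of the 4 settings.

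Other genes of the B and plasma cell pathway were read from lists. Over all probes, the percent called by the F-test of line was 5.96, with 7023 of 45281 at an unadjusted p under 0.05. Of 20 genes of the B cell receptor and B cell identity with a probe, 1 passed the F-test of line (7 at an unadjusted p under 0.05, median ICC 0.139). It was Cd74, the invariant chain of MHC class II, which other antigen-presenting cells also make, with an ICC of 0.318 (adjusted p = 0.0183). Without the 8 arrays, where the percent called over all probes was 11.0, 4 of the 20 passed. They were the kinase Blk with 0.308 (adjusted p = 0.022), the BAFF receptor Tnfrsf13c with 0.302 (0.025), the Fc receptor-like Fcrla with 0.295 (0.0296) and the follicle-homing receptor Cxcr5 with 0.275 (0.0451), while Cd74 had 0.266 (adjusted p = 0.054). The median ICC of the list was then 0.183. Of 6 germinal centre genes none passed, nor at an unadjusted p under 0.05, and of 16 genes of the plasma cell programme none passed, with 4 at an unadjusted p under 0.05 (median ICC 0.0519 and 0.0749). Without the 8 arrays these medians were 0.126 and 0.142, and none of either list passed, while the median over all probes was 0.0872. The J chain gene Jchain, which joins IgA dimers, had 0.192 (adjusted p = 0.246) and the secretory regulator Xbp1 0.185 (adjusted p = 0.268). Ighg1, the one immunoglobulin gene with a named probe, had 0.249 (adjusted p = 0.0999), and 0.283 (adjusted p = 0.0388) without the 8 arrays.

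Among 10 ligands and transport genes, 1 passed the F-test of line over all arrays, where the percent called over all probes was 5.96. It was the chemokine Ccl28, which draws IgA plasma cells to mucosa, with an ICC of 0.325 (adjusted p = 0.0147). Without the 8 arrays 3 of the 10 passed, where the percent called over all probes was 11.0. They were Ccl28 with 0.377, the gene of the B cell survival factor BAFF, Tnfsf13b, with 0.403 (adjusted p = 0.00114) and the chemokine Ccl19 with 0.272 (adjusted p = 0.048). Cxcl13, the chemokine that gathers B cells in follicles, had 0.266 (adjusted p = 0.0691), and Pigr, the epithelial carrier of IgA, 0.175 (adjusted p = 0.301). The probes were not filtered for founder SNPs here, so a line effect can include differences in hybridization.

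Females and males were compared with limma, and no member differed. The percent called over all probes was 0.0353 (16 of 45281), and 0 of 6 members were called. None of the 6 had an unadjusted p under 0.05, against 472 of 45281 probes. The log2 difference, female minus male, was 0.14 for Mzb1 (95% interval -0.09 to 0.36), 0.12 for Pou2af1 (-0.07 to 0.31) and 0.08 for Cd79b (-0.13 to 0.29). It was 0.03 for Tnfrsf17 (-0.09 to 0.14), 0.01 for Ms4a1 (-0.06 to 0.08) and -0.05 for Pax5 (-0.15 to 0.06), and the adjusted p was 1.0 for all 6. Without the 8 arrays it was 0.07 for Tnfrsf17 (-0.02 to 0.15), -0.01 for Ms4a1 (-0.07 to 0.04) and 0.00 for Pax5 (-0.04 to 0.04). No gene of the B cell, germinal centre, plasma cell, immunoglobulin or ligand lists passed, with 1 gene, of the plasma cell list, at an unadjusted p under 0.05. Among the markers of lymphoid stroma and venules, 1 of 7 differed between the sexes: Glycam1, a ligand of high endothelial venules, was higher in females by 1.13 (adjusted p = 1.95e-16).

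The number series did not separate the members either. By limma, 0 of 45281 probes were called between the series (percent called 0.0, 1829 at an unadjusted p under 0.05), and 0 of 6 members had an unadjusted p under 0.05. The log2 difference, high minus low series, was -0.17 for Pou2af1 (-0.36 to 0.02) and -0.16 for Mzb1 (-0.39 to 0.06), and -0.05 for Cd79b, -0.01 for Ms4a1, 0.02 for Pax5 and 0.02 for Tnfrsf17. The sex difference was compared between the series as an interaction, with 0 of 45281 probes called (percent called 0.0, 2260 at an unadjusted p under 0.05) and 0 of 6 members at an unadjusted p under 0.05. Its estimate was -0.31 for both Pou2af1 (-0.69 to 0.07) and Mzb1 (-0.76 to 0.14).

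Members were next set against each other over the line means of 112 lines, where 7 of 15 pairs passed (permutation test, adjusted over the 15 pairs), 6 of them positive. Cd79b, Pou2af1 and Mzb1 formed the group that held under all 13 alternatives. Over line means r was 0.632 for Cd79b with Pou2af1 (rho = 0.593), 0.618 for Cd79b with Mzb1 (rho = 0.581) and 0.641 for Pou2af1 with Mzb1 (rho = 0.547), each with an adjusted p of 3.75e-05. With the 2 most distant lines on the first gene's axis left out, these r values were 0.621, 0.637 and 0.571. Within the low series they were 0.626, 0.594 and 0.644, and within the high series 0.660, 0.653 and 0.634. The line means of a B cell receptor chain, a coactivator and a plasma cell chaperone thus rose and fell together. These line means share the mice, arrays and normalization, and each rests on few mice. Over the lines with both sexes, the line ICC was 0.17 for Cd79b, -0.103 for Pou2af1 and 0.0911 for Mzb1, none called. With mice taken singly, the r values of the same pairs were 0.54, 0.66 and 0.61. Whether the relation belongs to lines or to single mice was not tested.

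The pairs with a dim member changed more with the mice and arrays used. Mzb1 with Tnfrsf17, the pair of plasma cell members, had r = 0.315 (adjusted p = 0.00275, rho = 0.399), and r = 0.607 (rho = 0.507) without the 8 arrays. Without its 2 most distant lines it had r = 0.205 (adjusted p = 0.0669, rho = 0.368), and within the low and high series r = 0.313 and 0.347. Pax5 with Tnfrsf17 had r = 0.671 (adjusted p = 3.75e-05, rho = 0.498) and r = 0.441 (rho = 0.445) without the 8 arrays. It did not pass after quantile normalization (r = 0.195, adjusted p = 0.0601) or after removal of 10 principal components (r = 0.0693, adjusted p = 0.531), and both probes are near background. Ms4a1 with Pax5 had r = -0.373 (adjusted p = 0.00183) and rho = 0.0637, and without the 8 arrays r = 0.176 (adjusted p = 0.0951), so that the negative relation was not seen once those arrays were left out. Among the B cell members, Cd79b with Ms4a1 had r = 0.203 (adjusted p = 0.0588, rho = 0.38) and r = 0.372 (adjusted p = 0.0001) without the 8 arrays. Cd79b with Tnfrsf17 had r = 0.256 (adjusted p = 0.0141), and r = 0.204 (adjusted p = 0.0594) without the line 810 female and 0.189 (adjusted p = 0.0888) with the 2 most distant lines left out.

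**Figure D4:**
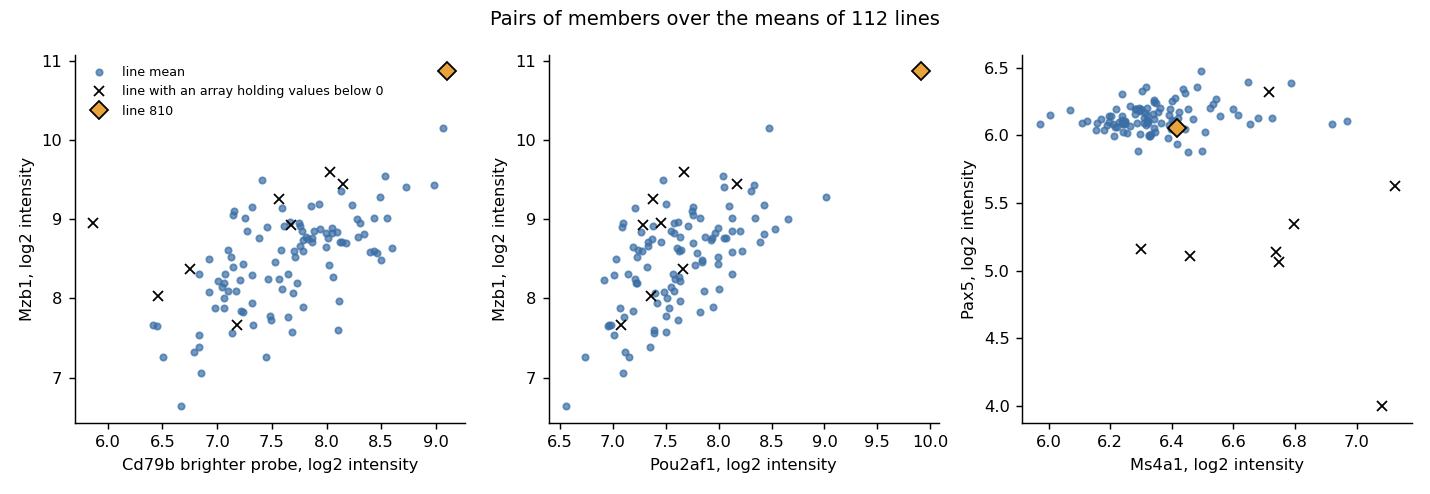
Line means in log2 intensity for Mzb1 against Cd79b and against Pou2af1, and for Pax5 against Ms4a1, with 1 point for each of 112 lines and crosses for lines that include one of the 8 arrays. Mzb1 rises with Cd79b and Pou2af1 (r = 0.618 and 0.641), and the low Pax5 values at the right panel's lower edge all belong to lines marked by crosses.

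B cell and plasma cell members were also averaged and compared, as a description with no test. The averages, here and below, were of unscaled log2 values, so the members with the widest spread weighed most. Without the 8 arrays and the line 810 female, the SD was 0.67 for Cd79b, 0.20 for Ms4a1 and 0.14 for Pax5. It was 0.71 for Mzb1 and 0.27 for Tnfrsf17. Cd79b with Mzb1 alone had r = 0.618 over line means. The mean of Cd79b, Ms4a1 and Pax5 followed the mean of Mzb1 and Tnfrsf17 over 112 line means with r = 0.589 (95% interval 0.453 to 0.698, rho = 0.552). It was 0.586 without the line 810 female and the 8 arrays, 0.565 within the low series and 0.621 within the high series. Counting Pou2af1 as a plasma cell member gave 0.614. The line ICC was 0.167 for the B cell mean and -0.0214 for the plasma cell mean, and 0.246 and 0.169 without the line 810 female and the 8 arrays. The difference of the sex-centred means, B cell minus plasma cell, had an ICC of 0.109 (-0.0948 to 0.304), which was 0.288 without the line 810 female. Within the high series it was 0.411 (0.129 to 0.633) and within the low series -0.0064 (-0.277 to 0.266). The low series holds the line 810 female and the line 3011 male named below. Lines at the upper end had both mice on the same side, with 0.69 in the female and 0.60 in the male of line 1485, and 0.56 and 0.64 in line 3087. At the lower end, line 810 had -2.85 in the female and 0.54 in the male, while line 3011 (-0.51 and -1.25) and line 1234 (-0.29 and -0.99) had both mice on the same side. The array of the line 3011 male was 1 of the 8 with values below 0, and its Cd79b and Pax5 were at the floor of 4.0. The lines at both ends were picked by their means, which by itself favours mice on the same side.

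Transcripts most like the members were then read from 11386 named genes above background, ranked by Pearson r over the sex-centred values of 205 mice. The mean of the B cell members was followed most closely by Cxcr5 (r = 0.823), the follicle-homing receptor, then by Nckap1l (0.769), Arhgap45 (0.76), Coro1a (0.754) and Map4k1 (0.753). Nckap1l and Coro1a are regulators of the actin skeleton in blood cells. Arhgap25, Cxcr4, Tnfrsf13b, Rasal3 and Cd72 completed the first 10, the last with r = 0.732. The mean of the plasma cell members was followed by Tnfrsf13b (0.748), the receptor TACI of B and plasma cells, then by Tent5c (0.743), Evi2a (0.731), Irf4 (0.715) and Il1b (0.711). Irf4 encodes a transcription factor that plasma cells need. Fxyd5, Map4k1, Rnase6, Nckap1l and Coro1a followed. Without the line 810 female, Irf4 and Il1b were not among the first 10, and the order began with Rnase6 (0.686), Evi2a (0.668), Coro1a (0.656) and Tnfrsf13b (0.652).

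For single members, the 3 closest genes were Coro1a (r = 0.831), Hvcn1 (0.817) and Tnfrsf13b (0.807) for Cd79b, where Hvcn1 encodes a proton channel that associates with the B cell receptor. They were Ikzf1 (0.828), Was (0.736) and Ets1 (0.7) for Pou2af1, all genes of lymphocytes and other blood cells. They were Tnfrsf13b (0.753), Coro1a (0.699) and Il1b (0.665) for Mzb1. Without the line 810 female and the 8 arrays, Il1b left this group and the first 3 for Mzb1 were Coro1a (0.713), Tnfrsf13b (0.708) and Rnase6 (0.673), while Coro1a, Cxcr5 and Hvcn1 led for Cd79b (0.875, 0.874 and 0.851) and Ikzf1 for Pou2af1 (0.859). The dim members had other company. Ms4a1 was nearest to Elavl2 (0.769), Rasgrf2 (0.763) and Unc13c (0.757), with mean levels of 6.46, 6.40 and 6.57, and Pax5 to Ppt2, Brap and Rcor3 (0.881, 0.874 and 0.868), with means of 6.35, 6.45 and 6.44, all close to the background of 6.34. For Pax5 the highest r fell to 0.544 without the line 810 female and the 8 arrays. Tnfrsf17 was nearest to Ctsk (0.752), Ifitm6 and Havcr2, and with these arrays and the mouse left out to Tyrobp (0.616), Prdx4 and Ms4a7.

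Some of the other marker lists moved with the members. The list of lymphoid stroma and venules holds Cr2, which is also in the B cell list, so it does not stand for other cells alone. Over line means, the 7 markers of lymphoid stroma and venules had r = 0.621 with Cd79b, 0.437 with Pou2af1 and 0.435 with Mzb1 (adjusted p = 5.33e-05 for each, permutation test over 48 gene and marker pairs), and 0.703, 0.503 and 0.586 without the line 810 female and the 8 arrays. The 9 T cell markers had r = 0.395 with Cd79b, 0.307 with Mzb1 and 0.262 with Pou2af1, and 0.365, 0.582 and 0.302 under the same exclusion. The 6 macrophage markers had 0.491 with Mzb1, 0.35 with Cd79b and 0.283 with Pou2af1, and 0.505, 0.3 and 0.179 (adjusted p = 0.117) under it. The 8 epithelial markers were not among the lists past the threshold with Cd79b, Pou2af1 or Mzb1, and goblet cell markers had r = -0.22 with Pou2af1 (adjusted p = 0.0422, and 0.078 under the exclusion). The dim members differed from these. With the 3 red cell markers, Ms4a1 had r = 0.315, Pax5 0.175 (adjusted p = 0.118) and Tnfrsf17 0.22. Under the exclusion these were 0.374, 0.339 and 0.288, the largest adjusted p being 0.00655. With the stroma and venule markers Ms4a1 had 0.102, and 0.292 (adjusted p = 0.006) under the exclusion. Ms4a1 had r = -0.432 with the epithelial markers and -0.374 under the exclusion, and -0.225 with the T cell markers, which turned to 0.156 (adjusted p = 0.17). Pax5 had r = 0.687 with the T cell markers and 0.268 under the exclusion, and 0.401 with the epithelial markers, which turned to -0.284 (adjusted p = 0.00725). Tnfrsf17 had r = 0.617 with the T cell and 0.482 with the macrophage markers, and 0.454 and 0.391 under the exclusion, while its r with the epithelial markers was 0.154 (adjusted p = 0.175) and then -0.337 (adjusted p = 0.00156). The mean level of the stroma markers ran from 6.56 over 7.35 to 8.21 in females and from 6.38 over 7.19 to 7.83 in males, and that of the T cell markers from 5.33 over 6.87 to 7.40 and from 5.62 over 6.81 to 7.46. The part of these cells in the spread of the members was not tested.

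The line 810 female stood apart from all other mice for 4 members. Mzb1 was 14.38 in this mouse, and the next highest of 205 mice had 10.46, a gap of 3.91 or 15.1-fold. Pou2af1 was 12.55 against a next value of 9.23, a gap of 9.96-fold. Cd79b was 10.96 against 9.45 on the brighter probe and 10.09 against 7.67 on the dimmer, and Tnfrsf17 was 8.54 against 7.42. Against the median of the other mice these were 56.4-fold for Mzb1, 31.2-fold for Pou2af1, 9.83-fold for Cd79b and 4.5-fold for Tnfrsf17. Ms4a1 was 6.41 and Pax5 6.03 in this mouse, within the range of the others, but Pax5 lies below and Ms4a1 at background, so these probes do not show whether their transcripts were raised. The male of line 810 had 7.37 for Mzb1, 7.28 for Pou2af1 and 7.25 for Cd79b, each below the median of the other mice. The array of this female was none of the 8 with values below 0. Its log2 median of 6.19 lay near the lower end of the arrays it was set against (6.16 to 6.64), a range narrower than that of all arrays.

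The other genes of the plasma cell and B cell lists were divided in the same mouse. Over all 11386 genes, 738 were highest in this mouse, and 1 other mouse had more such genes. By more than 1 log2, 131 genes were highest in this mouse, and 0 mice had more of these. Of 16 plasma cell genes 7 were highest in it and 9 were more than 1 above the median of mice of other lines, among them Creld2 (12.94, next 9.82), Fkbp11 (11.55, next 9.01), Tnfrsf13b (10.88, next 8.38), Irf4 (10.27, next 7.47) and Xbp1 (13.58, next 12.53). The other 7 were not more than 1 above, with Sdc1, the surface proteoglycan of plasma cells, at rank 46 and Eaf2 at rank 113, and with Pim2, Ccr9 and Ccr10 below background over all mice. Of 20 B cell genes 7 were more than 1 above the median, and 5 were highest in it, Cd37, Cd72, Btk, Syk and Vpreb3. Among those above background, Cd22 was at rank 200, Fcmr at rank 175 and Cxcr5 at rank 168, each below the median of the other lines. Ighg1 was 9.68, the second highest of 205 mice, and Jchain 10.23 against a next value of 9.75. Of all 11386 genes ranked, 808 were more than 1 above and 1466 more than 1 below the median in this mouse, so the shift was not limited to these genes.

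The genes in which this mouse stood farthest above all others were, beside Mzb1 and Pou2af1, Il1b (12.45, next 7.98), Tent5c (11.34, next 7.56), Slpi (13.90, next 10.16) and Sel1l (12.97, next 9.34). Il1b encodes an inflammatory cytokine, Slpi a protease inhibitor of mucosa and Sel1l a part of the machinery that clears misfolded protein from the endoplasmic reticulum. Bhlha15, Hp, Mmp3 and Osm were also among the first 15. All 6 macrophage markers and 4 of 5 fibroblast markers were more than 1 above the median in this mouse, while 7 of 8 epithelial, 3 of 6 goblet cell and 4 of 6 smooth muscle markers were more than 1 below it. The mean level of the epithelial markers was 9.34, against a median of 10.75 over females, and that of the macrophage markers was 10.18 against 8.39. The T cell markers had a median shift of 0.11, but only 5 of 9 were above background. Of these, Cd2 was highest of all mice (1.09 above the median) and Thy1 was at rank 4 (0.87 above), while Cd3d, Cd3e and Cd3g were 0.15, 0.11 and 0.43 above. The part of these other cells in its member levels was not tested.

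**Figure D5:**
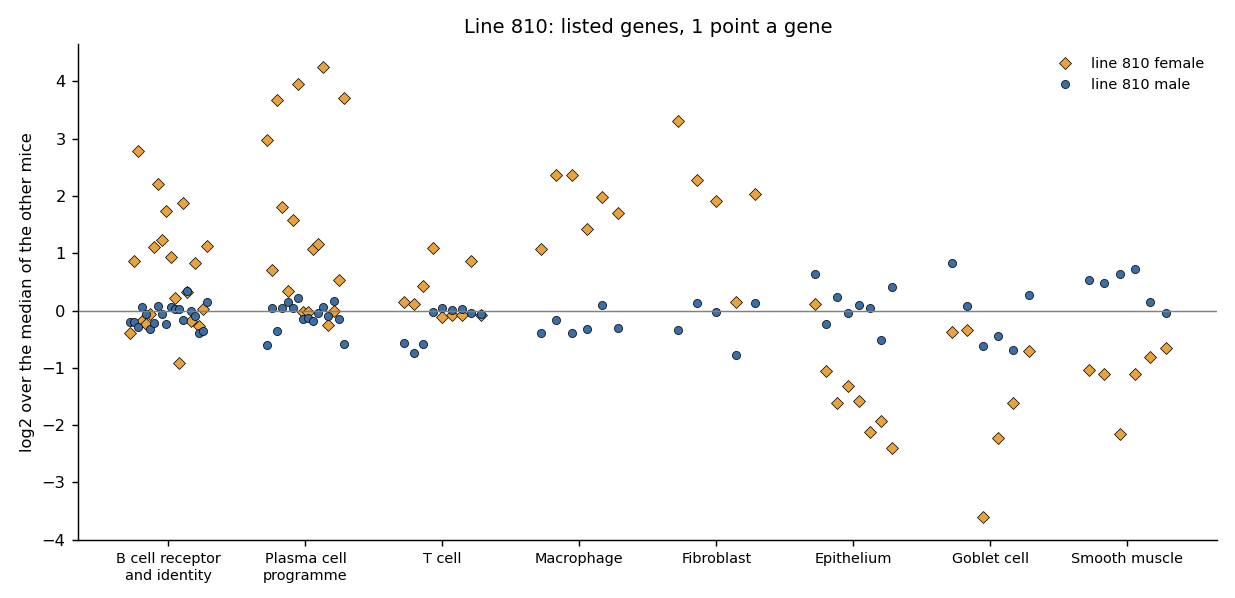
Log2 level over the median of the mice of other lines for the listed genes in the female and the male of line 810, with 1 point for each gene. In the female the medians are 1.12 for the plasma cell list, 1.84 for macrophage and 2.04 for fibroblast markers, and -1.59, -1.16 and -1.07 for epithelial, goblet cell and smooth muscle markers, while the male's medians for these lists lie between -0.32 and 0.51.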

How the data were processed

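Intensities were deposited as linear values of 1 array for each mouse. By their methods the authors used BeadStudio 3.0.19 and applied rank-invariant normalization with no background subtraction, and the deposited intensity table still holds probes over founder SNPs. Here a floor of 16 was set before log2. Probes were named from the platform annotation, updated through a reference gene table (GRCm38.p6). The line ICC came from mean squares between and within lines after centring by sex, sexes and series were compared with limma 3.58.1 in R 4.3.3, and correlations were computed over line means with 100000 two-sided permutations in Python 3.11.15. Benjamini-Hochberg adjustment ran over all probes for the fits and over pairs for correlations. As Cd79a had no probe, 15 pairs were tested in place of the 21 set out. A gene with more than 1 probe is given by its brightest. The line fit and the limma fit of the sexes were each tested with shuffled labels and known effects added. Genes named are the members, the listed genes, and the 10 or 3 genes most like each mean or member. The genes farthest above other mice in the line 810 female were chosen after their values were seen. The members and lists were chosen with earlier results of these data known. Alternatives were quantile normalization, subtraction of the 5th percentile of each array, a floor of 32, removal of 10 principal components, other sets of mice, arrays and probes, and the line as a block. The number of arrays limits the precision. The p-values for sex and series rest on the spread between mice, and the line was not in their main fit. The F-test of line sets the spread between lines against that within lines. The p-values of correlations over line means come from permuting those means.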

Additional observations from a re-analysis of the deposited data

How the results depend on the processing

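The counts of members called between lines, sexes and series were 0 under every alternative that could be run, except that 1 member, Cd79b, was called between lines within the high number series (ICC 0.466). Of 15 pairs of members 7 passed, and 11 passed after subtraction of the 5th percentile and with mice taken singly. Under the other alternatives between 6 and 9 pairs passed. The r of Ms4a1 with Pax5 turned from -0.373 to 0.0783 after quantile normalization, 0.592 after subtraction of the 5th percentile, 0.0791 after removal of 10 principal components, 0.176 without the 8 arrays with values below 0 and 0.177 without these arrays and the line 810 female. Ms4a1 with Pou2af1 turned to 0.298 after removal of the components, and Ms4a1 with Tnfrsf17 to 0.424 after subtraction of the 5th percentile. Pax5 with Tnfrsf17 no longer passed after quantile normalization (0.195) or removal of the components (0.0693). For the B cell minus plasma cell mean, the line ICC moved from 0.109 to 0.411 within the high series, -0.0064 within the low series and 0.311 without the line 810 female and the 8 arrays. The cause of these shifts was not tested. Leaving Cd79a out of the B cell members was not run, as it had no probe. The line as a replicate block in the comparison of the sexes called 0 members, as a random block (Mzb1 0.138, consensus correlation 0.0396) and as a fixed block over lines with 1 mouse of each sex (Mzb1 0.093). The line number was not counted as a pairing: over 91 such pairs the deviations of female and male had a median correlation of 0.213, and 64.8% were over 0.1. Between lines, 2697 of all probes were called, and 4166 after quantile normalization, 8535 after removal of the components, 4988 without the 8 arrays, 5198 without them and the line 810 female, and 1578 and 1339 within the low and high series. Over all probes, 32 were called between the sexes without the 8 arrays, against 16 with them. Signal near background limits Pax5, Ms4a1 and Tnfrsf17.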

Other observations

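Both mice of line 749 had a label that gave no clear sex and entered no comparison. Mzb1 was 9.02 in the first and 8.67 in the second, Pou2af1 6.75 and 7.80, and Cd79b (brighter probe) 7.18 and 7.68. Ms4a1 was 6.27 and 6.41, Pax5 6.09 and 6.25, and Tnfrsf17 6.41 and 6.58. Each value lay within the range of the labelled mice.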
